A study of Mus musculus with 8 samples.

Results

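The 31 genes described here encode the working parts of the lysosome: 9 cathepsins and other proteases, 7 glycosidases, 6 proteins that handle lipids, 4 proteins of the lysosomal membrane and 5 subunits of the proton pump. They were taken from a list of gene symbols, not by a threshold on their values, though with earlier results of these data known. All 31 were measured by at least 1 probe set with a single annotated symbol, out of 18193 genes so measured on the array. In the 4 DOR siRNA cultures, a lentivirus brought into C2C12 cells an siRNA that targets Trp53inp2, the gene for the protein DOR. In the 4 scrambled cultures, the lentivirus encoded a scrambled RNA instead. Per the labels' protocols, the cells of both groups were transduced at an moi of 100, expanded for 5 to 7 days, sorted to 93 to 99% GFP-positive and then held in 5% horse serum for 4 days. C2C12 is a mouse myoblast line that forms myotubes in low serum. The labels call the source confluent myoblasts, so the labels do not settle the stage at harvest, and no culture without virus is included. Within a group the cultures are labelled biological replicates with no word on their origin, so the p-values measure the spread between these cultures, which may in part be technical.

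Lysosomes are acidic compartments in which proteins, glycans and lipids delivered by endocytosis and autophagy are broken down. The vacuolar ATPase (V-ATPase) pumps protons into them, soluble hydrolases do the cutting at low pH, and a coat of glycosylated membrane proteins lines the limiting membrane. Many lysosomal genes carry an E-box in their promoters, the sequence CACGTG, within a longer motif called the CLEAR element that the transcription factor TFEB and its relatives bind. DOR is known as a nuclear cofactor of the thyroid hormone receptor that can move to autophagosomes, the vesicles that fuse with lysosomes. In differentiating muscle cells, lysosomes take part in the turnover of proteins and organelles.

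Expression was measured on 1-colour Affymetrix arrays as log2 values per probe set. Trp53inp2, the targeted gene, had 9.46, 9.93, 9.49 and 9.18 log2 units in DOR siRNA cultures 1 to 4, against 11.50, 11.55, 11.43 and 10.92 in scrambled cultures 1 to 4. The groups did not overlap, and Trp53inp2 was 3.56-fold lower in DOR siRNA cultures (difference -1.83 ± 0.17, SE; limma adjusted p = 0.00087). Its second, dimmer probe set differed by 0.14 ± 0.08 (adjusted p = 0.519). All differences below are in log2 units, DOR siRNA minus scrambled, with their standard error, and a call is a limma p, adjusted by the Benjamini-Hochberg method over 45037 probe sets, under 0.05. Each gene is given by its brightest probe set, that of highest mean over the 8 cultures, unless stated otherwise. Since these are bulk cultures, fewer cells of a type and less RNA per cell cannot be told apart.

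None of the 31 lysosomal genes passed the test by its brightest probe set. Across all 18193 genes, 3.11% were called higher and 1.45% lower in DOR siRNA cultures. At an unadjusted p under 0.05, 5 of the 31 were higher (Glb1, Npc2, Ctsd, Atp6v0d1 and Ctsb) and 2 were lower (Lipa and Atp6v0a1), beside 11.5% higher and 6.55% lower among all genes. The paired limma fit, which keeps same-numbered cultures together as a block, called 2 of the 31 higher, Npc2 (adjusted p = 0.0343) and Glb1 (adjusted p = 0.0423), and 0 lower, where it called 5.10% of all genes higher and 3.16% lower. The call count was 2 without scrambled culture 4, again with Npc2 higher (0.42, adjusted p = 0.0282) and with Atp6v0a1 lower (-0.38, adjusted p = 0.0429).

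The 31 differences were small. They ran from -0.28 for Atp6v0a1 to 0.37 for Glb1, and the median of their absolute size was 0.11, against 0.09 over all genes. A 1.2-fold difference was exceeded by 3 of the 31 (Glb1, Npc2 and Atp6v0a1) and by 2735 of 18193 genes, and a 1.5-fold difference by 0 of the 31 and 543 genes. The median standard error of the 31 was 0.09. For 30 of the 31 the 95% interval of the difference lay within 1.5-fold in either direction, and the exception was Glb1, whose interval ran from 0.14 to 0.59.

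More of the 31 differences lay above 0 than below it, 19 against 12, with 54.9% of all genes above 0. Their median was 0.07, against 0.02 over all genes, and it dropped to 0.03 without DOR siRNA culture 4. In 8 of the 31 every DOR siRNA culture was above every scrambled culture: Glb1, Npc2, Ctsa, Ctsb, Ctsd, Ctss, Gusb and Atp6v0d1. In 0 of the 31 every DOR siRNA culture was below, and in 23 the groups overlapped. Among all genes, 8.10% were separated in this way with DOR siRNA higher and 4.13% with DOR siRNA lower. Both group means were below 6.18, the median of all probe sets, in 6787 of the 18193 genes and in 2 of the 31. The shares over all genes, here and below, thus include many dim genes. Shares over brighter genes alone were not computed.

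**Figure D1:**
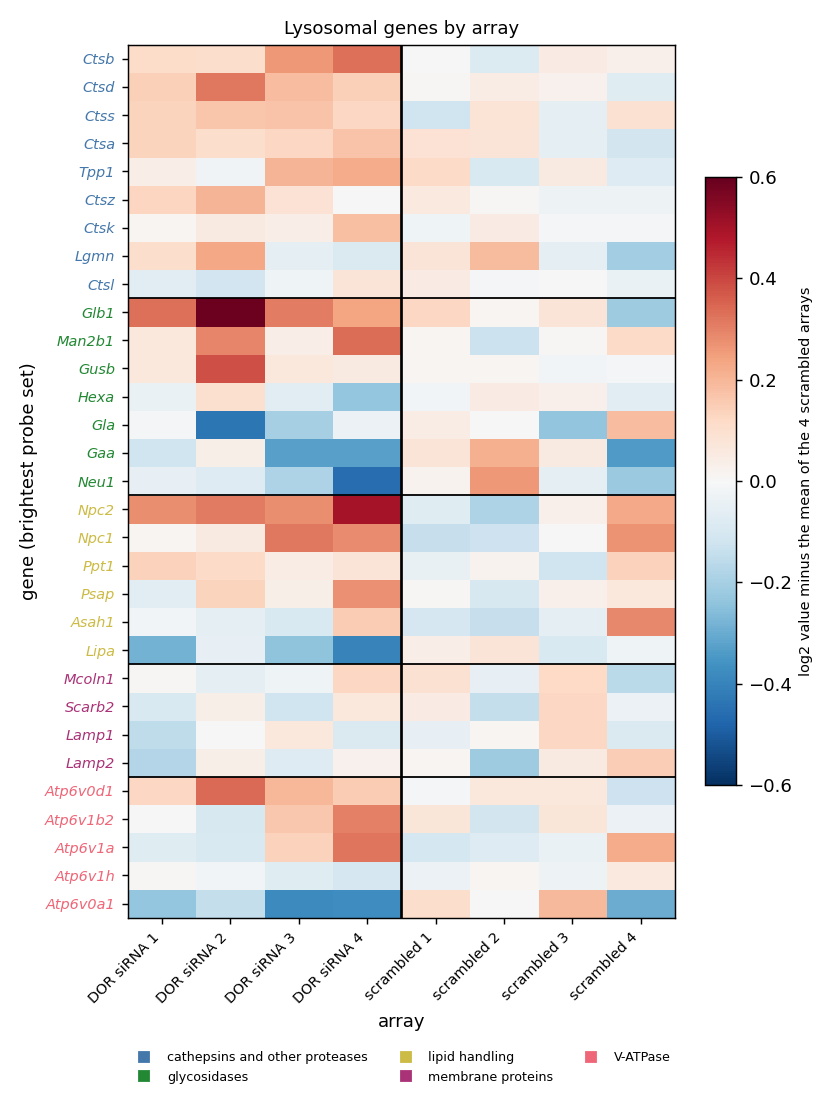
Each row is 1 of the 31 lysosomal genes (brightest probe set) and each column 1 culture, DOR siRNA cultures left and scrambled cultures right; colour gives the log2 value minus the gene's mean over the 4 scrambled cultures. Rows such as Glb1 and Npc2 split between the groups, while most of the rows mix.

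**Figure D2:**
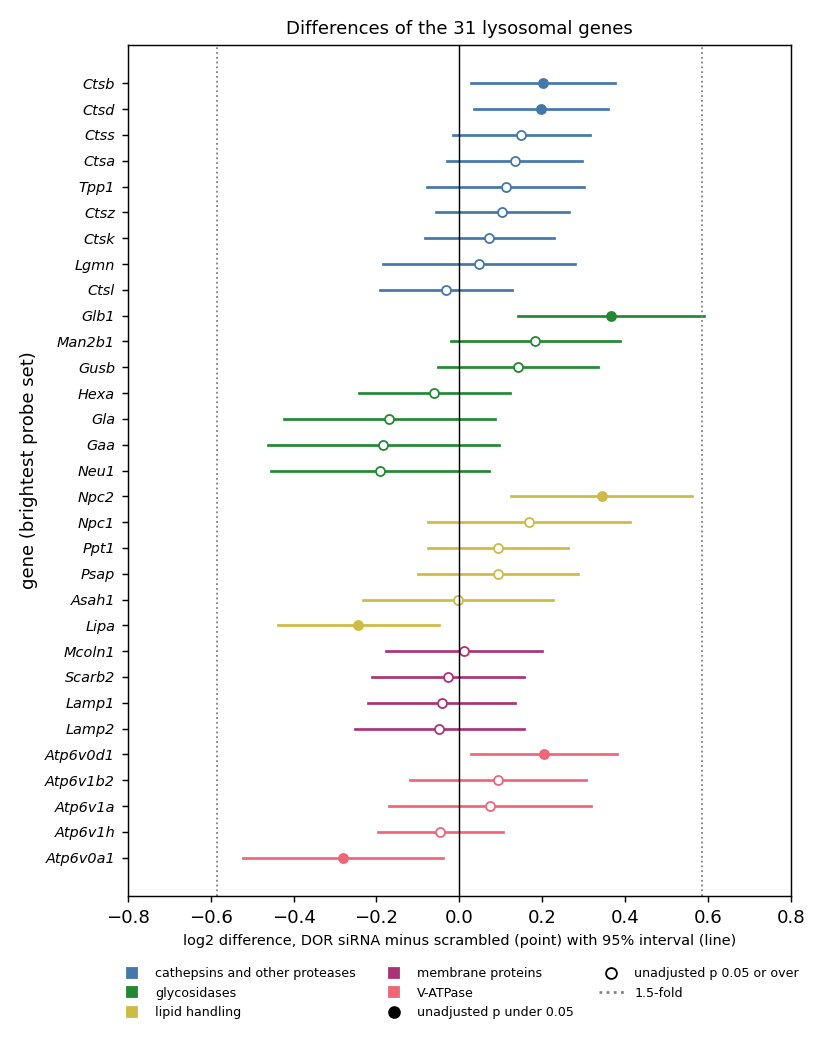
Log2 difference, DOR siRNA minus scrambled, of each of the 31 lysosomal genes with its 95% interval from limma, grouped by role. The points lie between -0.28 and 0.37, with 19 above 0 and 12 below.

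Among the proteases, 8 of 9 differences were above 0 and 0 of 9 passed the test. Their median was 0.11, with a range from -0.03 to 0.20. Ctsd encodes cathepsin D, an aspartic protease. It had 12.12, 12.29, 12.16 and 12.12 in DOR siRNA cultures, against 11.98, 12.02, 12.00 and 11.90 in scrambled cultures. The lowest DOR siRNA culture thus stood above the highest scrambled one, a difference of 0.20 ± 0.07 that did not pass the test (adjusted p = 0.203). Ctsb, the cysteine protease cathepsin B, had 13.33, 13.33, 13.48 and 13.55 in DOR siRNA cultures, against 13.23, 13.14, 13.27 and 13.25 in scrambled cultures. These groups did not overlap either (0.20 ± 0.08, adjusted p = 0.236).

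Cathepsin B was measured by 5 probe sets, and all 5 gave a difference above 0, from 0.13 to 0.45. The mean over the 5 rose by 0.25 and passed the test (adjusted p = 0.032), where the brightest alone did not. The probe sets ranked 3 and 4 by brightness, at 0.31 ± 0.08 and 0.45 ± 0.13, had adjusted p = 0.0501 and adjusted p = 0.0809, and in the paired fit adjusted p = 0.0395 and adjusted p = 0.0221.

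Ctsl encodes cathepsin L, a cysteine protease. It had 13.56, 13.52, 13.60 and 13.71 in DOR siRNA cultures, against 13.68, 13.62, 13.63 and 13.59 in scrambled cultures, and was the protease gene with a difference below 0 (-0.03 ± 0.07, adjusted p = 0.905). Ctsa, whose product is a carboxypeptidase that also protects neuraminidase 1 and beta-galactosidase in a complex, differed by 0.13 ± 0.07 (adjusted p = 0.446). Its DOR siRNA cultures lay between 10.72 and 10.78 and its scrambled cultures between 10.50 and 10.70. Ctsz, a carboxypeptidase of the cathepsin family, differed by 0.10 ± 0.07 (adjusted p = 0.587), and Tpp1, a tripeptidyl peptidase, by 0.11 ± 0.09 (adjusted p = 0.628). Lgmn, the asparaginyl endopeptidase that processes cathepsins, differed by 0.05 ± 0.11 (adjusted p = 0.904).

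The remaining proteases, Ctsk and Ctss, are best known from osteoclasts and antigen-presenting cells. Both had group means below 6.18, the median of all probe sets, so expression of either gene is not shown by these values. Ctss had 3.90 ± 0.02 in DOR siRNA cultures and 3.75 ± 0.10 in scrambled cultures (SD, n = 4 each), without overlap (0.15 ± 0.08, adjusted p = 0.386). Ctsk had 5.81 ± 0.07 in DOR siRNA cultures and 5.74 ± 0.03 in scrambled cultures (SD, n = 4 each; difference 0.07 ± 0.07, adjusted p = 0.729).

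The glycosidases did not share a direction, with 3 of 7 differences above 0, 4 below and 0 passing the test (median -0.06). Glb1 encodes beta-galactosidase, the enzyme behind the staining used to mark lysosomal content and senescence. It had 9.32, 9.57, 9.29 and 9.22 in DOR siRNA cultures, against 9.11, 8.99, 9.06 and 8.77 in scrambled cultures. All 4 DOR siRNA cultures were above all 4 scrambled cultures, and the difference, 0.37 ± 0.10 or 1.29-fold, was the largest of the 31. It missed the threshold in the group-only fit (adjusted p = 0.0812) and passed it in the paired fit (adjusted p = 0.0423). Over the fits that left out 1 culture, it ran from 0.29 to 0.41 with adjusted p between 0.0899 and 0.166.

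The Glb1 promoter is shown because Glb1 had the smallest p of the 31 and holds the E-box word CACGTG. The sequence covers the 250 bases before the RefSeq start of the gene, GRCm38.p6 chr9:114400828-114401077 on the plus strand, 5′ to 3′, and capitals mark the word.
Glb1: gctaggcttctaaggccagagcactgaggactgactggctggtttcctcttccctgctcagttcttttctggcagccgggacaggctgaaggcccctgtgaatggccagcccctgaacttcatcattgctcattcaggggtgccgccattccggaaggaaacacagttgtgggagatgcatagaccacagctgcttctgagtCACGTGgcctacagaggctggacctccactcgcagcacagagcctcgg

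Of the other 6 glycosidases, 4 were below 0 and 2 above, and 0 passed the test. Hexa, the alpha subunit of beta-hexosaminidase, had 12.39, 12.52, 12.36 and 12.20 in DOR siRNA cultures, against 12.41, 12.48, 12.46 and 12.36 in scrambled cultures (-0.06 ± 0.08, adjusted p = 0.825). Neu1, the lysosomal sialidase, was lower in each of the 4 same-numbered pairs, with 8.48 ± 0.19 in DOR siRNA cultures and 8.67 ± 0.20 in scrambled cultures (SD, n = 4 each; -0.19 ± 0.12, adjusted p = 0.519). Gaa, the acid alpha-glucosidase that degrades glycogen in lysosomes and is deficient in Pompe disease, differed by -0.18 ± 0.13 (adjusted p = 0.576). Gla, alpha-galactosidase A, differed by -0.17 ± 0.12 (adjusted p = 0.574).

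Man2b1, a lysosomal alpha-mannosidase, differed by 0.18 ± 0.09 (adjusted p = 0.390) and was higher in each of the 4 pairs. Gusb encodes beta-glucuronidase. It had 8.60, 8.93, 8.60 and 8.59 in DOR siRNA cultures, against 8.55, 8.55, 8.52 and 8.53 in scrambled cultures. The groups did not overlap, but DOR siRNA culture 2 stood apart from the other cultures, and the difference was 0.14 ± 0.09 (adjusted p = 0.519). Without that culture it was 0.06.

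**Figure D3:**
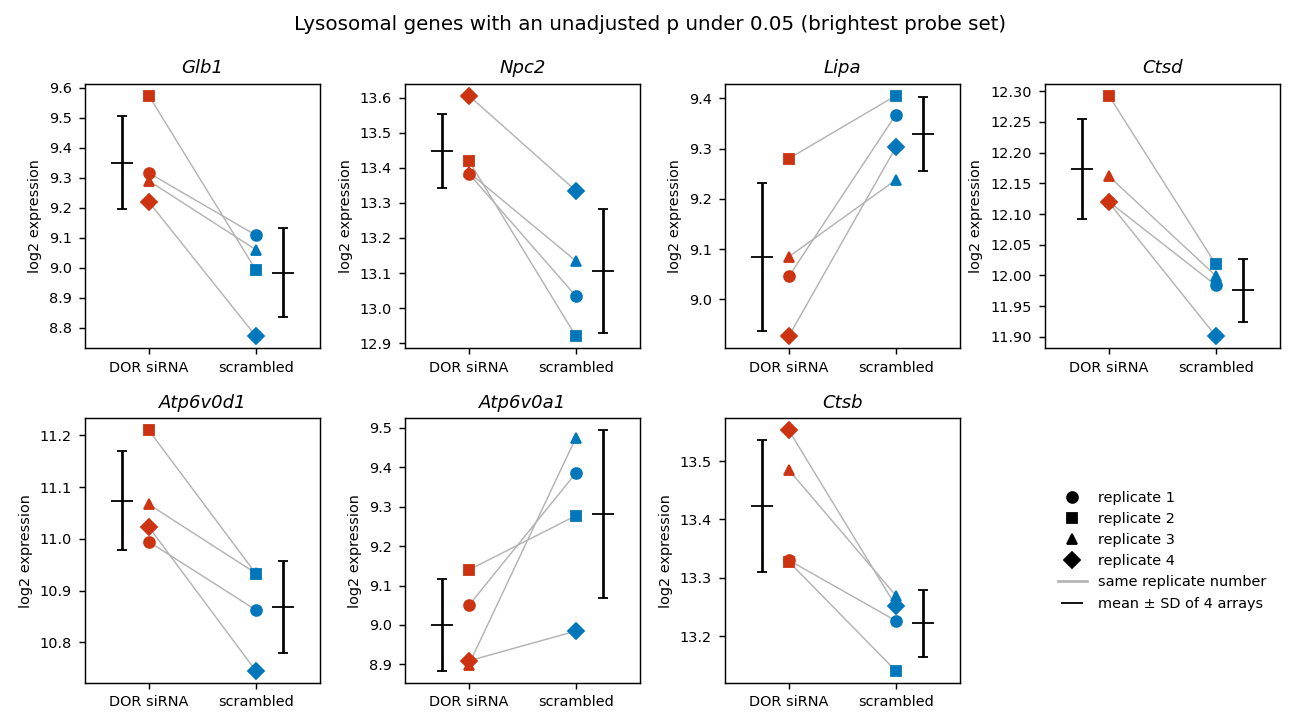
Log2 values of the 7 lysosomal genes with an unadjusted p under 0.05 in each culture, DOR siRNA left of scrambled; grey lines join cultures of the same number and black marks give the mean ± SD of 4 cultures. Glb1, Npc2, Ctsd, Atp6v0d1 and Ctsb separate the groups upward, while for Lipa and Atp6v0a1 the highest DOR siRNA culture reaches into the scrambled range.

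Genes for lipid handling had a median difference of 0.09, with 4 of 6 above 0 and 2 below. By the brightest probe set 0 of 6 passed the test. NPC2 and NPC1 together move cholesterol out of the lysosome, NPC2 as the soluble carrier and NPC1 as the membrane transporter. Npc2 had 13.38, 13.42, 13.39 and 13.61 in DOR siRNA cultures, against 13.03, 12.92, 13.13 and 13.33 in scrambled cultures. All DOR siRNA cultures were above all scrambled cultures, by 0.34 ± 0.10 or 1.27-fold, with an adjusted p of 0.0932 in the group-only fit and 0.0343 in the paired fit.

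The Npc2 probe sets ranked 2 and 3 by brightness gave differences of similar size. The second had 12.61, 12.65, 12.60 and 12.90 in DOR siRNA cultures, against 12.13, 12.11, 12.29 and 12.51 in scrambled cultures (0.43 ± 0.11, adjusted p = 0.0567; 0.0143 in the paired fit). The third had 9.06, 9.18, 9.07 and 9.18 in DOR siRNA cultures, against 8.68, 8.70, 8.64 and 8.95 in scrambled cultures. It rose by 0.38 ± 0.09 and passed the test (adjusted p = 0.0397), but with 1 culture left out at a time it passed in 1 of 8 fits, the one without scrambled culture 4, and its adjusted p ran from 0.0115 to 0.124. The dimmest of the 4 Npc2 probe sets, with both group means below 6.18, the median of all probe sets, differed by -0.01.

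The promoters of Npc2 and of Lipa, the gene with the smallest p among those that were lower, are shown as the 250 bases before each RefSeq start. They lie at GRCm38.p6 chr12:84773113-84773362 and chr19:34527475-34527724, both on the minus strand and written 5′ to 3′, and neither holds CACGTG, which capitals would mark.
Npc2: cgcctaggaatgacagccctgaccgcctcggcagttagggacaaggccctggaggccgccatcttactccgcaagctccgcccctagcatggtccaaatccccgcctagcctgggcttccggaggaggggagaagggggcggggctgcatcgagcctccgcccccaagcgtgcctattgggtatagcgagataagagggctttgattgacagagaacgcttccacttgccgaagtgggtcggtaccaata
Lipa: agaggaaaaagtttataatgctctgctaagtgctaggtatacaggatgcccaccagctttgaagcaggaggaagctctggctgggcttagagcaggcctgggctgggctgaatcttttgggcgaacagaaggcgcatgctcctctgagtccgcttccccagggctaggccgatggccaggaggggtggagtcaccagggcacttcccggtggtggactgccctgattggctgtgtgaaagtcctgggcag

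Lipa encodes lysosomal acid lipase, which cleaves cholesteryl esters and triglycerides. It had 9.05, 9.28, 9.08 and 8.93 in DOR siRNA cultures, against 9.37, 9.41, 9.24 and 9.30 in scrambled cultures. The groups overlapped, since DOR siRNA culture 2 stood above scrambled culture 3, and the difference was -0.24 ± 0.09 (adjusted p = 0.189). All 3 Lipa probe sets were below 0, from -0.24 to -0.02, and by the brightest Lipa was lower in each of the 4 pairs. Npc1 differed by 0.17 ± 0.11 (adjusted p = 0.553) and was higher in each of the 4 pairs. Psap, the precursor of the saposins that help enzymes reach sphingolipids, differed by 0.09 ± 0.09 (adjusted p = 0.710), and Ppt1, the palmitoyl-protein thioesterase, by 0.09 ± 0.08 (adjusted p = 0.657). Asah1, the acid ceramidase, was even in the groups (-0.0033 ± 0.10, adjusted p = 0.994, 95% interval from -0.23 to 0.23).

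The membrane proteins had the narrowest range of differences of the 5 roles. All 4 lay between -0.05 and 0.01, and 0 of 4 had an unadjusted p under 0.05. Lamp1, a heavily glycosylated protein of the lysosomal membrane, had 13.06, 13.21, 13.27 and 13.13 in DOR siRNA cultures, against 13.16, 13.22, 13.33 and 13.12 in scrambled cultures. The values interleaved (-0.04 ± 0.08, adjusted p = 0.887), with a 95% interval from -0.22 to 0.13. Lamp2, its relative, needed for autophagosome fusion and for chaperone-mediated autophagy, differed by -0.05 ± 0.09 (adjusted p = 0.889). The probe set ranked 3 by brightness was at 0.27 ± 0.10 (adjusted p = 0.209), and the mean over its 4 probe sets was 0.02. Scarb2, also called LIMP-2, carries beta-glucocerebrosidase to lysosomes and differed by -0.03 ± 0.08 (adjusted p = 0.935). Mcoln1, the calcium channel TRPML1, differed by 0.01 ± 0.09 (adjusted p = 0.977).

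The Lamp1 promoter carries more matches to the E-box word than that of any other gene of the 31 in the table of promoters, and was chosen after these counts were seen. The 75 bases before its RefSeq start, GRCm38.p6 chr8:13159086-13159160 on the plus strand, hold 4 of them, in capitals.
Lamp1: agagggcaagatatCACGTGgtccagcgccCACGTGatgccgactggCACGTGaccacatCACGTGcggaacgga

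The V-ATPase has a V0 sector in the membrane, which carries the protons, and a V1 sector in the cytosol, which hydrolyses ATP. Of its 5 subunits among the 31 genes, 0 passed the test by the brightest probe set, and 3 were above and 2 below 0. The V0 subunits had differences of opposite sign. Atp6v0d1, a V0 subunit at the junction with V1, had 10.99, 11.21, 11.07 and 11.02 in DOR siRNA cultures, against 10.86, 10.93, 10.93 and 10.74 in scrambled cultures, without overlap (0.21 ± 0.08, adjusted p = 0.232). Atp6v0a1, an isoform of the large membrane subunit a, had 9.05, 9.14, 8.90 and 8.91 in DOR siRNA cultures, against 9.39, 9.28, 9.47 and 8.98 in scrambled cultures. Scrambled culture 4 was the low scrambled value that made the groups overlap, and Atp6v0a1 was lower in each of the 4 pairs (-0.28 ± 0.11, adjusted p = 0.233).

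Further probe sets of Atp6v0a1 disagreed in size. The probe set ranked 2 was at -0.61 ± 0.27 (adjusted p = 0.315). There DOR siRNA culture 2 stood apart at 6.22, with the other DOR siRNA cultures at 7.46 to 7.79. The probe set ranked 3 was at -0.46 ± 0.13 (adjusted p = 0.0907, and 0.0239 in the paired fit). In both the groups did not overlap, but only narrowly. The highest DOR siRNA and lowest scrambled values were 7.785 and 7.787 for the one ranked 2. For the one ranked 3 they were 7.62 and 7.63. The dimmest probe set was at 0.06. Which transcripts the probe sets read was not analysed here.

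In the V1 sector, Atp6v1b2, an isoform of the nucleotide-binding subunit B, had 11.10, 11.01, 11.26 and 11.40 in DOR siRNA cultures, against 11.17, 10.99, 11.17 and 11.07 in scrambled cultures (0.09 ± 0.10, adjusted p = 0.750). Atp6v1a, the catalytic subunit A, differed by 0.07 ± 0.11 (adjusted p = 0.847). Atp6v1h, the regulatory subunit H, had a brightest probe set at -0.05 ± 0.07 (adjusted p = 0.842), with DOR siRNA cultures at 9.17 to 9.28 and scrambled cultures at 9.23 to 9.33. Its second probe set had 6.69, 6.69, 6.52 and 6.69 in DOR siRNA cultures, against 7.30, 7.14, 7.10 and 7.08 in scrambled cultures. There the groups stood well apart, and the probe set fell by 0.50 on the log2 scale (SE 0.08, adjusted p = 0.00898; 0.00772 in the paired fit). It passed in 8 of 8 fits that left out 1 culture. The 2 probe sets of this gene thus gave different answers, and the dimmest, with both means below 6.18, was at 0.08.

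Over all 72 probe sets of the 31 genes, 1 was called higher (Npc2, ranked 3) and 1 lower (Atp6v1h, ranked 2), beside 2.04% higher and 1.19% lower among all 45037 probe sets. The paired fit called 6 higher and 2 lower, beside 3.47% and 2.81%. For 10 genes there was 1 probe set. Of the other 21 genes, 7 had all probe sets above 0, 5 had all below 0 and 9 were mixed. Among the genes with several probe sets and a like sign throughout were Ctsb, with 5 above 0, Ctsz and Mcoln1, with 3 above 0 each, and Lipa and Neu1, with 3 below 0 each.

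**Figure D4:**
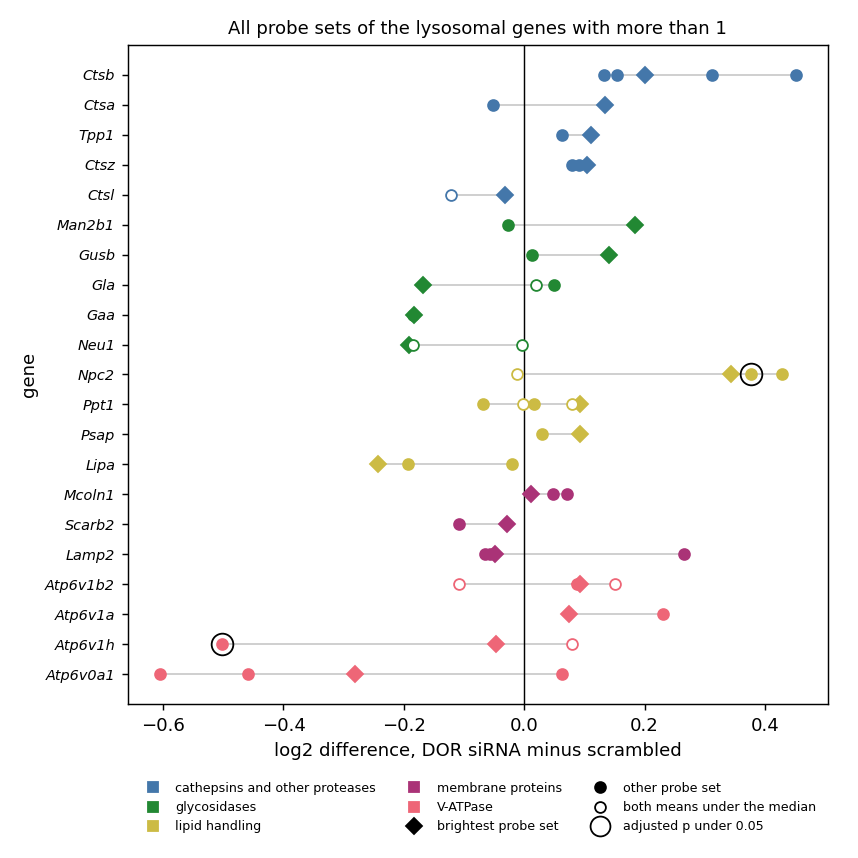
Log2 difference, DOR siRNA minus scrambled, of every probe set of the 21 lysosomal genes with more than 1; diamonds mark the brightest, open points those with both group means below 6.18, and rings the 2 that passed the test. Probe sets of Atp6v0a1, Atp6v1h, Lamp2 and Npc2 spread most widely, while those of Gaa, at -0.18 for both, coincide.

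Taken pair by pair, the number of the 31 genes higher in the DOR siRNA culture was 17 in pair 1, 21 in pair 2, 19 in pair 3 and 22 in pair 4. The share of all genes higher in the same pairs was 54.0%, 49.5%, 56.4% and 53.6%. The proteases were higher in 7, 8, 8 and 9 of 9 genes across the 4 pairs, and the membrane proteins in 0, 2, 0 and 3 of 4. The median difference of the 31 was 0.04, 0.07, 0.04 and 0.10 in pairs 1 to 4 (SD over pairs 0.03).

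The E-box word was counted in RefSeq promoter windows of GRCm38.p6 that span 250 bases before to 50 after each start. Some genes have several starts, with 32851 windows for 27025 genes, and a gene was counted if any of its windows held the word. Ctsa and Lgmn did not hold it at all of their starts. CACGTG reads the same on both strands, and TCACGTG, which contains it, was searched on both strands. Of the 31 genes, 26 had a window, and 11 of these held CACGTG (42.3%) and 10 held TCACGTG (38.5%). Of 27025 genes in the table, 8.09% held CACGTG and 4.29% held TCACGTG. Among the other lysosomal genes of the wider list below, 61 had a window. Of these, 15 held CACGTG (24.6%) and 14 held TCACGTG (23%). The 11 genes were Ctsa, Ctsd, Ctsl, Lgmn, Gaa, Gla, Glb1, Lamp1, Mcoln1, Atp6v0d1 and Atp6v1a, and Ctsl held CACGTG alone. Asah1, Atp6v1b2, Atp6v1h, Ctsb and Npc1 had no window.

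The word with 8 bases on either side is shown for 5 more of these genes, from the proteases, glycosidases, membrane proteins and V-ATPase, chosen after the matches were seen, each on its gene's strand with CACGTG in capitals. In GRCm38.p6 they lie at chr7:142387912-142387933 (minus strand) for Ctsd, chr8:105566054-105566075 (minus) for Atp6v0d1, chr8:3500466-3500487 (plus) for Mcoln1, chr11:119267815-119267836 (plus) for Gaa and chrX:134601186-134601207 (minus) for Gla.
Ctsd: ccgcgtctCACGTGacccgttg
Atp6v0d1: actgcggtCACGTGagacgcgg
Mcoln1: gccccgctCACGTGaccgcggc
Gaa: tgtgcgatCACGTGtttgactc
Gla: atctcggtCACGTGagcaactc

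Genes with and without the word overlapped in their response. The 11 genes with CACGTG had a median difference of 0.05, from -0.18 for Gaa to 0.37 for Glb1, with 7 above 0. The 15 without it had a median of 0.09, from -0.28 for Atp6v0a1 to 0.34 for Npc2, with 9 above 0. The test called 0 genes in either set. A match in a window is a run of letters and does not show that a factor binds there.

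A wider list of 84 lysosomal genes, chosen with earlier results of these data known, gives the setting. Of these, 75 were measured and 5 were called higher and 4 lower, beside 3.11% and 1.45% of all genes. The paired fit called 6 higher and 6 lower, beside 5.10% and 3.16% of all genes. The list's median difference was 0.01, against 0.02 over all genes. Both group means were below 6.18 in 11 of the 75, against 6787 of 18193 genes. Of 12 glycosidases and sulfatases, 10 were above 0 and 3 were called higher, beside 54.9% above 0 and 3.11% called higher among all genes. Arsb, which removes sulfate from dermatan and chondroitin sulfate, had 9.11, 9.45, 9.28 and 9.30 in DOR siRNA cultures, against 8.60, 8.53, 8.65 and 8.65 in scrambled cultures (0.68 ± 0.08, adjusted p = 0.00311). The mean over its 3 probe sets was 0.40 (adjusted p = 0.00556). Ids, iduronate sulfatase, had 10.60, 10.72, 10.59 and 10.71 in DOR siRNA cultures, against 10.24, 10.05, 10.05 and 10.43 in scrambled cultures (0.46 ± 0.10, adjusted p = 0.0301). The mean over the probe sets of Ids was 0.19 (adjusted p = 0.241). Arsa, which removes sulfate from sulfatide, had 9.17, 9.55, 9.14 and 9.13 in DOR siRNA cultures, against 8.78, 8.81, 8.89 and 8.76 in scrambled cultures (0.44 ± 0.10, adjusted p = 0.0406).

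Gm2a, the activator that presents ganglioside GM2 to beta-hexosaminidase A, was the lipid-related gene of the wider list to pass the test. It had 8.71, 9.02, 8.63 and 8.63 in DOR siRNA cultures, against 8.35, 8.24, 8.24 and 8.30 in scrambled cultures (0.46 ± 0.10, adjusted p = 0.0278). The Gm2a probe set ranked 2 by brightness passed too (0.38 ± 0.08, adjusted p = 0.0368), and the one ranked 3 did not (0.35 ± 0.11, adjusted p = 0.122). Its enzyme partner Hexa is the gene given above at -0.06. Ctso, a cysteine protease of the cathepsin family, had 9.28, 9.54, 9.31 and 9.32 in DOR siRNA cultures, against 8.75, 8.77, 8.71 and 8.92 in scrambled cultures (0.57 ± 0.08, adjusted p = 0.00631). Its second, dimmer probe set was at 0.01 (adjusted p = 0.972), and the mean of both was 0.29 (adjusted p = 0.0434). Ctsc, dipeptidyl peptidase I, had 4.48, 3.96, 4.17 and 4.00 in DOR siRNA cultures, against 6.09, 6.93, 5.20 and 4.76 in scrambled cultures. It fell by 1.59 on the log2 scale (SE 0.37, adjusted p = 0.0436), with both group means below the median of all probe sets, 6.18. Its other 2 probe sets, dimmer still, were at -0.08 and -0.11 (adjusted p = 0.747 and adjusted p = 0.596), and the mean over the 3 fell by 0.59 (adjusted p = 0.0286). Ctsh, a cysteine protease named after its values were seen, differed by 0.60 ± 0.16 (adjusted p = 0.0762; 0.00775 in the paired fit).

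Of the other V-ATPase subunits, 4 of 16 were above 0 and 12 below, beside 54.9% of all genes above 0, and 3 were called lower and 0 higher, beside 1.45% and 3.11% of all genes. Atp6v1e1, a subunit of the stalk that holds V1 to V0, had 11.82, 11.68, 11.71 and 11.76 in DOR siRNA cultures, against 12.04, 12.13, 12.17 and 12.14 in scrambled cultures. The groups were well separated (-0.38 ± 0.07, adjusted p = 0.0185), while the mean over its probe sets fell by 0.21 and did not pass (adjusted p = 0.0558). Its probe set ranked 3 by brightness, with both group means below 6.18, passed too (-0.32 ± 0.07, adjusted p = 0.0312). Those ranked 2 and 4 were at -0.07 each. Atp6v1g2, a stalk subunit isoform known from neurons, had 6.43, 6.31, 6.36 and 6.35 in DOR siRNA cultures, against 6.76, 6.64, 6.78 and 6.57 in scrambled cultures (-0.33 ± 0.08, adjusted p = 0.041). Atp6v1c2, an isoform of subunit C, had 5.69, 5.50, 5.45 and 5.50 in DOR siRNA cultures, against 6.11, 6.03, 6.13 and 5.85 in scrambled cultures (-0.49 ± 0.09, adjusted p = 0.0146), dim in both groups. Together with the subunits among the 31 genes, 3 of 11 V1 subunits were called lower, beside 1.45% of all genes. Brighter isoforms of Atp6v1c2 and Atp6v1g2, looked up after their values were seen, were even in the groups. Atp6v1c1 had a mean of 12.0 in DOR siRNA and in scrambled cultures (-0.0015 ± 0.07, adjusted p = 0.996). Atp6v1g1 had 12.55 in DOR siRNA and 12.57 in scrambled cultures (-0.02 ± 0.07, adjusted p = 0.952). Above 0 were 2 of 11 V1 subunits, beside 54.9% of all genes. Of 8 V0 subunits 0 were called and 4 were above 0. The paired fit called 4 of 11 V1 subunits lower, beside 3.16% of all genes. The added one was Atp6v1d, subunit D of the central shaft, named after its values were seen (-0.34 ± 0.10, adjusted p = 0.0806; 0.0287 in the paired fit).

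When 1 culture was left out at a time, Arsb and Ctso passed in 8 of 8 fits, Atp6v1c2 and Atp6v1e1 in 5 of 8, Gm2a in 3 of 8, and Ids, Arsa, Ctsc and Atp6v1g2 in 1 of 8. The number of called genes of the wider list was 2 without DOR siRNA culture 3 or without scrambled culture 3, and 11 without scrambled culture 4.

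The groups of the wider list without a call were membrane proteins, sorting factors and transcriptional regulators. Pip4p1, a lysosomal phosphatase that acts on a phosphoinositide, differed by 0.23 ± 0.07 (adjusted p = 0.111), the smallest p of 14 membrane proteins. Sort1, the sorting receptor sortilin, had 8.77, 8.91, 8.48 and 8.52 in DOR siRNA cultures, against 9.47, 9.66, 9.21 and 8.84 in scrambled cultures. By this probe set it missed the threshold (-0.63 ± 0.16, adjusted p = 0.0669; 0.00721 in the paired fit), and its probe sets ranked 2 and 3 fell by 0.55 and 0.61 and passed (adjusted p = 0.0262 and adjusted p = 0.0339). Among 13 transcription factors and regulators, Rragc, a Rag GTPase that links amino acids to mTORC1 at the lysosome, had the smallest p (0.25 ± 0.08, adjusted p = 0.136). The TFEB family members, looked up after their values were seen, differed by -0.11 ± 0.11 for Tfeb, 0.16 ± 0.08 for Tfe3 and -0.25 ± 0.12 for Mitf (adjusted p = 0.745, adjusted p = 0.375 and adjusted p = 0.359). Tfec, with both group means below 6.18, differed by 0.16 ± 0.10 (adjusted p = 0.516).

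**Figure D5:**
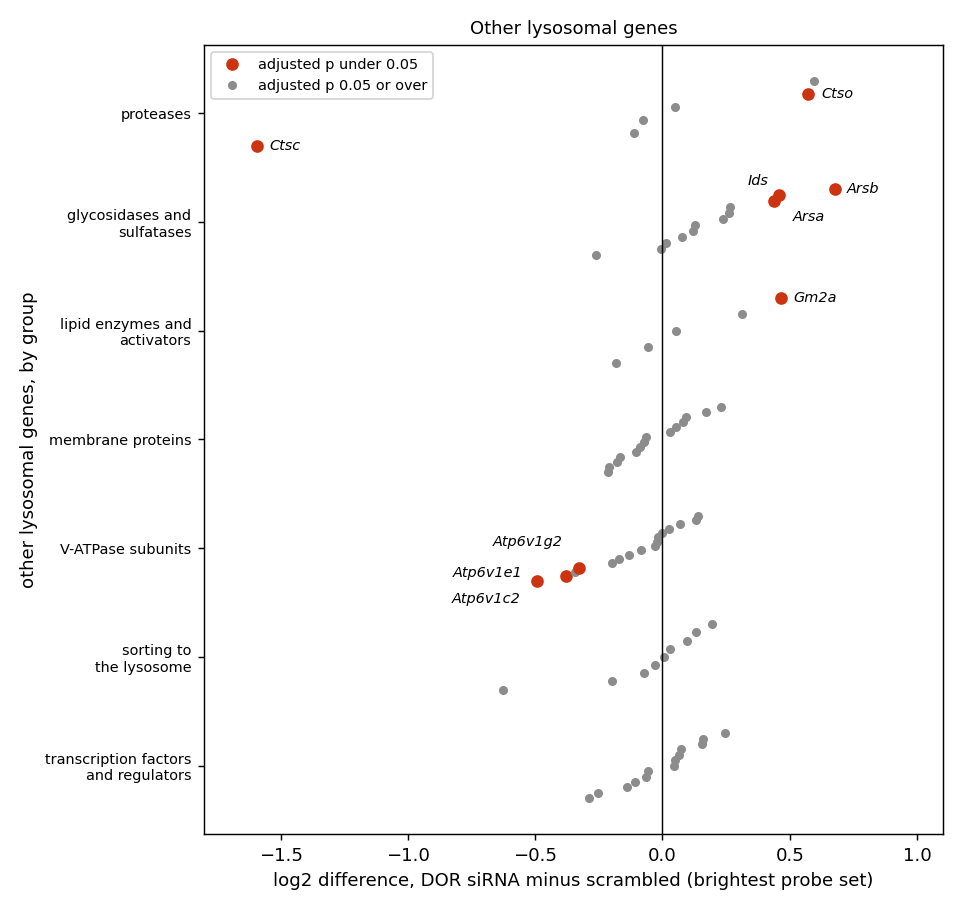
Log2 difference, DOR siRNA minus scrambled, of the 75 measured genes of the wider lysosomal list by role (brightest probe set); large points passed the test and are named. The 5 called higher are hydrolases and an activator, and 3 of the 4 called lower are V1 subunits of the V-ATPase. Atp6v1c1 and Atp6v1g1, brighter isoforms of the called Atp6v1c2 and Atp6v1g2, lay at -0.0015 and -0.02 and are not named.

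Markers of cell identity differed between the same cultures. Beside the counts of this and the following lists, the group-only fit called 1.45% of all genes lower and 3.11% higher. The paired fit called 3.16% lower and 5.10% higher. The mean log2 level of 10 muscle genes was 11.47 to 11.61 in DOR siRNA cultures, against 11.91 to 12.09 in scrambled cultures. Of the 10, 3 were called lower (Actn2, Mef2c and Myh3) and 0 higher. The paired fit called 4 lower, with Ckm added (-0.65 ± 0.23, adjusted p = 0.00632), and 1 higher, Myf5 (0.45 ± 0.13, adjusted p = 0.0436). Myog (-0.31), Acta1 (-0.23), Des (-0.07), Myod1 (-0.05) and Cdh15 (0.12) were called in neither fit. Mean levels in scrambled cultures were 14.70 for Acta1, 13.98 for Myh3, 13.70 for Myog and 12.75 for Ckm. They were 11.51 for Myod1, 9.47 for Actn2 and 8.60 for Myf5. The stage at harvest was not tested with these levels. The mean of 5 fibroblast genes was 9.06 to 9.42 in DOR siRNA cultures, against 8.93 to 9.05 in scrambled cultures. Pdgfra was called higher, and in the paired fit also Dcn (0.56 ± 0.15, adjusted p = 0.00762). Col3a1 (0.20), Col1a1 (0.04) and Thy1 (-0.13, both group means below 6.18) were called in neither fit. The mean of 6 macrophage genes was 5.68 to 5.81 in DOR siRNA cultures, against 5.57 to 5.68 in scrambled cultures. Of these 6 genes Cd14 was called higher, by 0.65 ± 0.10 (adjusted p = 0.00885), while the other 5 lay between -0.09 and 0.09 and were not called, and Ptprc and Itgam had both group means below 6.18. For osteoclast genes (4), adipocyte genes (3) and endothelial genes (4), 0 were called and the ranges of the groups overlapped. The part of these markers in the lysosomal differences was not tested.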

How the data were processed

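RNA from 4 DOR siRNA and 4 scrambled cultures (25 ng each, amplified, per the labels' protocols) was hybridised to Affymetrix arrays. The submitters' processing notes name RMA as the authors' method for the deposited log2 values. RMA gives 1 value per probe set after background correction and equalises the arrays' distributions, which hides any change common to all transcripts. Its version is not given in the sources used here. Array medians ran from 6.14 to 6.20 and correlations between arrays from 0.988 to 0.997. Precision is limited by the number of arrays.

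After removal of 64 control probe sets, 45037 were tested. The platform annotation listed a single symbol for 34945, several for 932 (not named here) and none for 9160. Of the first, 34741 matched RefSeq identifiers and 0 symbols were updated. Identifiers ending in _s_at, _x_at or _a_at can read several transcripts. The group-only fit used lmFit and eBayes of limma 3.58.1 (R 4.3.3), two-sided, and figures were drawn with matplotlib 3.10.9. The steps were tested on simulated data.

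Same-numbered cultures share a letter in their descriptions, and their deviations from the group means correlated at 0.142 to 0.468 (different numbers -0.394 to 0.265). These ranges overlap, so the correlations do not settle whether the cultures were paired. The numbers were nonetheless taken as pairing the cultures, and a fit with the number as a block was run beside the group-only fit. The other alternatives were cyclic loess, centring, a variance trend with a robust prior, a filter on dim probe sets, the average of all probe sets of a gene, and leaving out each culture. The fit of averages was adjusted over 18193 genes, and the filtered fit over the probe sets kept.

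The 31 genes, the wider list and the marker lists were chosen with earlier results of these data known. All 31 genes are named. Values per culture are given for those with an unadjusted p under 0.05, those with a called probe set and the brightest of each role. Every called gene of the wider list is named, and the gene with the smallest p in its groups without a call. Genes or sequences outside this rule are marked as chosen after their values were seen or are those whose groups did not overlap. Promoter sequences are from RefSeq (GRCm38.p6).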

Additional observations from a re-analysis of the deposited data

Results flagged for a closer look

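Of 88 groups of 4 cultures examined, 5 held a culture whose gap to the nearest of the others, divided by the range of the group, was above Dixon's 95% critical value. Chance flags about 5% of such groups. Gusb was at 8.93 in DOR siRNA culture 2, with the other DOR siRNA cultures at 8.59 to 8.60. Npc2 was at 13.61 in DOR siRNA culture 4, with the others at 13.38 to 13.42. Among the wider lysosomal genes, DOR siRNA culture 2 was high for Arsa, at 9.55 with the others at 9.13 to 9.17, and for Ctso, at 9.54 with the others at 9.28 to 9.32. Rragc was at 11.46 in scrambled culture 4, with the other scrambled cultures at 11.35 to 11.37.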

How the results depend on the processing

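The count of called genes among the 31 was 0 in the group-only fit, 2 with the replicate block, 1 (Ctsb) with the average of all probe sets of a gene and 0 to 2 over the fits that left out a culture. By the brightest probe set, the block changed the calls of Glb1, Npc2 and, in the wider list, Sort1, and no other call of the genes named by the rule. The count among the 72 probe sets of the 31 genes was 2, with 8 under the block, 4 after the filter on dim probe sets and 1 to 7 over the fits that left out a culture, the 7 without scrambled culture 4. The wider list had 9 called genes, 12 with the block and 2 to 11 over those fits. Over all probe sets, 1452 were called, 2827 with the block and 608 to 2310 over those fits. The median difference of the 31 ran from 0.033 to 0.092 over those fits. Under all alternatives, 413 of 432 values of the 31 genes kept their direction and their side of the threshold, 5 newly passed and 14 changed sign. The sign changes were of Lamp2 with the mean over its probe sets (0.024) and, over the fits that left out a culture, of Lamp2 (-0.12 to 0.0014), Asah1 (-0.056 to 0.093), Lgmn (-0.021 to 0.11), Scarb2 (-0.075 to 0.013), Atp6v1a (-0.0090 to 0.15) and Mcoln1 (-0.043 to 0.052). In the wider list, the call of Ctsc was lost with cyclic loess, with centring and with the variance trend (adjusted p = 0.0507, adjusted p = 0.052 and adjusted p = 0.113), at differences of -1.60, -1.59 and -1.59, and the call of Arsa with centring (0.44, adjusted p = 0.0565). The cause of these changes was not tested. Precision is limited by the 4 arrays a group, and dim probe sets compress differences toward 0.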
